A study of Mus musculus with 5 samples.

Results

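Myeloid cells, the macrophages, microglia, monocytes and neutrophils of the innate immune system, were followed through 34 of their genes in pools of sorted olfactory sensory neurons (OSNs). The genes were chosen by name: 4 that mark all leukocytes, 13 of macrophages and microglia, 7 surface receptors, adaptors and sensors, 4 of neutrophils, 4 cytokines and chemokines, and *Acod1* and *Hcar2*. All 34 were found by their Ensembl identifiers among the 55411 genes counted in each library.

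The 5 libraries were FACS-seq libraries, in which fluorescent cells are sorted and the RNA of each pool is sequenced in bulk. The cells came from mice homozygous for the Olfr151tm26Mom allele, in which neurons that choose the odorant receptor gene *Olfr151* also make tau-GFP, and live nucleated GFP-positive cells (GFP+/Hoechst+/DRAQ7-) were taken from the main olfactory epithelium. The mice were males, 7 weeks old. Exposed mice received 5% acetophenone in DMSO for 5 h and control mice DMSO alone, so every animal received the solvent. Control pools 1, 2 and 3 and exposed pools 1 and 3 were available, each from 4 mice, and exposed pool 2 was not analysed here. A pool holds 200 cells by the sample label and 400 cells by the extraction protocol, and it mixes mice, so animals cannot be told apart within it. The pool numbers come from the labels, which place the mice on consecutive days but tie no number to a day. Counts are given below in the order of these numbers.

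The libraries held 42780403 to 49527380 counts in total, and ERCC spike-in RNA took 0.249% to 0.631% of them. The detection floor used below, 3 counts in a library, equals 0.0607 to 0.0704 CPM, a count scaled to the library total. The labelled cell type was checked against its markers. *Olfr151* lay between 2282 and 3698 CPM and *Omp*, the marker of mature OSNs, between 12145 and 17219 CPM in the 5 pools, and all 9 genes of a mature OSN list were above the floor in each. Of these 9, 3 were called lower in the exposed pools and 0 higher, by the test described below, which called 1.85% of all genes tested lower and 3.42% higher. Counting intervals cover counting error only, since amplified reads without molecular identifiers are not independent molecules.

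Macrophages of the olfactory mucosa clear the debris of neurons that die and are replaced throughout life. They depend on the receptor encoded by *Csf1r*, carry lysosomal enzymes and complement C1q, and present antigen on MHC class II, whose folding needs the invariant chain encoded by *Cd74*. Neutrophils arrive from blood, guided by *Cxcr2*, and carry the calcium-binding proteins S100A8 and S100A9. Activated myeloid cells make interleukin-1β and the chemokines CCL3 and CCL4. They also turn on *Acod1*, whose enzyme converts *cis*-aconitate of the citric acid cycle into itaconate, and *Hcar2*, a receptor for the ketone body β-hydroxybutyrate and for niacin. OSNs are neurons and are not known for the lineage genes of this list.

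Myeloid transcripts were rare in every pool. The 34 genes together took 0.0656% of gene counts in control pool 1 (95% exact binomial interval 0.0649 to 0.0664), 0.00703% in control pool 2 (0.0068 to 0.00727) and 0.00493% in control pool 3 (0.00473 to 0.00514). They took 0.0746% in exposed pool 1 (0.0738 to 0.0754) and 0.0458% in exposed pool 3 (0.0451 to 0.0464). Control pool 1 thus stood apart from the other control pools and, by this share, lay between the exposed pools. Per 1000 ERCC counts the 34 genes had 103, 28.2 and 14.8 counts in the control pools and 137 and 149 in the exposed pools, so on that scale control pool 1 lay below both exposed pools, whose order was turned. Control pools averaged 0.0259% ± 0.0344 (SD, n = 3) and exposed pools 0.0602% ± 0.0204 (SD, n = 2), a ratio of 2.33 that is smaller than its own propagated SD of 3.20. Without control pool 1 the ratio was 10.1. In bulk samples, fewer cells of a type and less RNA per cell cannot be told apart.

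The same genes did not rise together in all pools. Of the 34 genes, 33 exceeded the floor in at least 1 library and 12 in all 5. The number above the floor was 29 in control pool 1, 26 in control pool 2, 16 in control pool 3, 32 in exposed pool 1 and 29 in exposed pool 3. The highest level, in CPM, was in control pool 1 for 12 genes, in exposed pool 1 for 11 and in exposed pool 3 for 10, and never in control pool 2 or 3. Scaled by ERCC counts, these numbers were 9, 8 and 15, with 1 gene led by control pool 2, so which pool led most genes depended on the scaling. A gene's leading pool held a median of 50.6% of its summed CPM, with a range of 28.9% to 95.45%. Among genes past the count minimum of the test, this median was 47.5% for the myeloid genes and 26.9% for all genes. Of the 19 myeloid genes past it, 16 reached it through the exposed pools alone. That favours an uneven distribution over pools, so these medians are descriptions only.

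**Figure D1:**
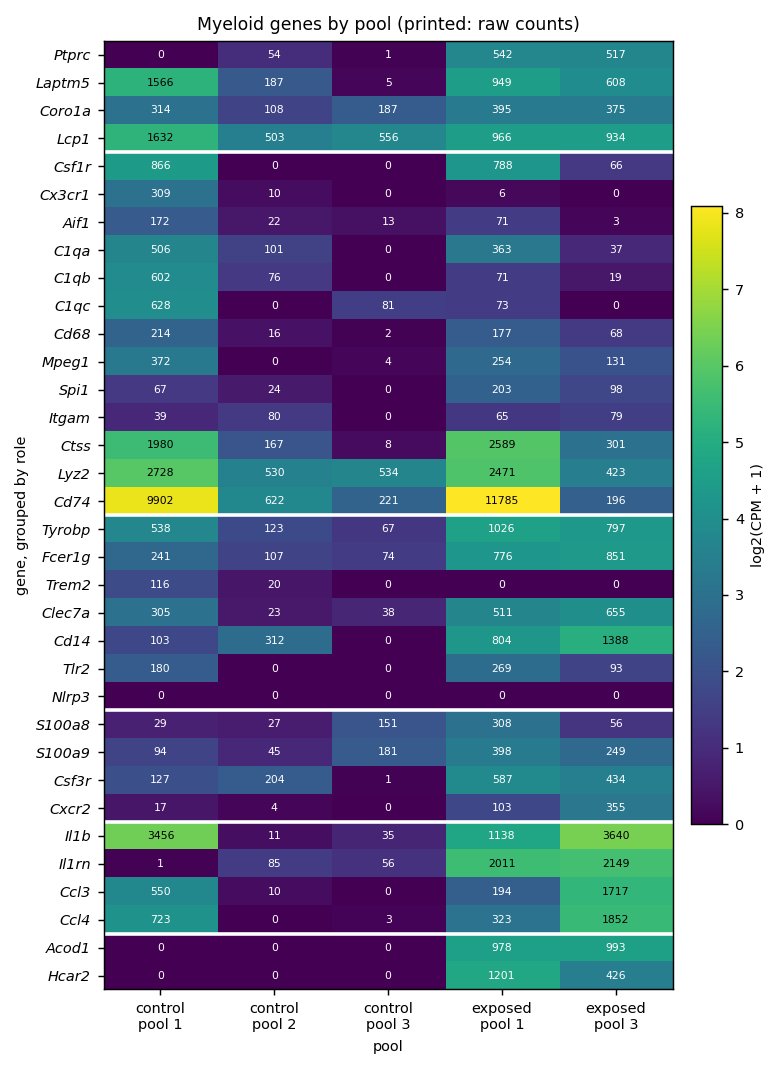
Heat map of the 34 myeloid genes (vertical axis, grouped by role with white lines between roles) in the 5 pools (horizontal axis), coloured by log2(CPM + 1), with the raw count printed in each cell. Macrophage genes are high in control pool 1 and exposed pool 1, whereas *Acod1* and *Hcar2* are at 0 in the 3 control pools and between 426 and 1201 counts in the exposed pools.

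Of the 4 genes shared by all leukocytes, 2 were higher in both exposed pools than in any control pool, a pattern that 20.3% of all genes tested showed. Both reached the count minimum of the test through the exposed pools alone, which favours this pattern, so the shares are descriptions only. *Ptprc*, which encodes the CD45 phosphatase, had 0, 54 and 1 counts in the control pools, against 542 and 517 in the exposed pools. The groups did not overlap, and control pool 1 was at 0 although its other leukocyte genes were high. *Laptm5*, a lysosomal protein of blood cells, had 1566, 187 and 5 counts in the control pools and 949 and 608 in the exposed pools. *Lcp1*, an actin-bundling protein, ran from 503 to 1632 counts in the control pools and had 966 and 934 in the exposed pools. Both were highest in control pool 1, so their groups overlapped. *Coro1a*, another actin regulator, had 314, 108 and 187 counts in the control pools and 395 and 375 in the exposed pools, without overlap, but its model overlaps that of *Bola2* on the opposite strand, and reads were counted without strand.

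The macrophage and microglia genes were mostly led by control pool 1, which held the highest level of 9 of the 13, against 3 led by exposed pool 1 and 1 by exposed pool 3. *Csf1r* had 866, 0 and 0 counts in the control pools, against 788 and 66 in the exposed pools. *Mpeg1*, encoding a pore-forming protein of macrophages, had 372, 0 and 4 counts and then 254 and 131. *Cd68*, a lysosomal glycoprotein, had 214, 16 and 2 counts and then 177 and 68. In these 3 genes control pool 1 and exposed pool 1 were alike in level, exposed pool 3 was lower and the other control pools were near or at the floor.

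The chains of C1q, the recognition unit of classical complement, are encoded by neighbouring genes on chromosome 4, with gaps of 2851 and 3616 bases. *C1qa* had 506, 101 and 0 counts in the control pools and 363 and 37 in the exposed pools. *C1qb* had 602, 76 and 0 counts and then 71 and 19, and *C1qc* 628, 0 and 81 and then 73 and 0. The 3 chains were thus of nearly the same count in control pool 1 but not in exposed pool 1, where *C1qa* was far above *C1qb* and *C1qc*.

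Genes typical of microglia and of resident macrophages were almost limited to control pool 1. *Cx3cr1*, the receptor for the neuronal chemokine fractalkine, had 309, 10 and 0 counts in the control pools and 6 and 0 in the exposed pools. *Trem2*, a lipid-sensing receptor, had 116, 20 and 0 counts and then 0 and 0. The *Cx3cr1* gene model spans several other genes, *Wdr48* and *Csrnp1* among them, and reads were counted without strand. *Aif1*, which encodes the microglial marker IBA1, had 172, 22 and 13 counts in the control pools and 71 and 3 in the exposed pools. These genes were therefore at or near the floor in exposed pool 3 although other myeloid genes were high there.

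*Cd74* had the most counts of the 34 genes in control pools 1 and 2 and exposed pool 1, whereas *Lcp1* did in control pool 3 and *Il1b* in exposed pool 3. It had 9902, 622 and 221 counts in the control pools and 11785 and 196 in the exposed pools. It alone made up 34.9% of the myeloid counts in control pool 1 and 36.4% in exposed pool 1. *Ctss*, the cathepsin that trims the invariant chain, had 1980, 167 and 8 counts and then 2589 and 301. *Lyz2*, lysozyme, had 2728, 530 and 534 counts and then 2471 and 423, a value that is uncertain since its near-identical copy *Lyz1* shares reads with it. All 3 were high in control pool 1 and exposed pool 1, and at 196 to 423 counts in exposed pool 3.

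*Spi1*, the gene of the master myeloid transcription factor PU.1, had 67, 24 and 0 counts in the control pools and 203 and 98 in the exposed pools, without overlap. Both exposed pools lay above all control pools in 20.3% of all genes tested, and *Spi1* did not reach the count minimum of the test. *Itgam*, encoding the integrin CD11b shared by macrophages and neutrophils, had 39, 80 and 0 counts and then 65 and 79. Its levels did not separate the groups.

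Receptors and adaptors of the innate response were higher in both exposed pools than in any control pool for 4 of the 7 genes. Of all genes tested, 20.3% showed this. All 4 reached the count minimum of the test through the exposed pools alone, which favours this pattern, so the shares are descriptions only. *Fcer1g*, the common chain of Fc receptors, had 241, 107 and 74 counts in the control pools and 776 and 851 in the exposed pools. *Tyrobp*, the DAP12 adaptor, had 538, 123 and 67 counts and then 1026 and 797. *Clec7a*, the fungal glucan receptor dectin-1, had 305, 23 and 38 counts and then 511 and 655. *Fcer1g* and *Tyrobp* are used by macrophages and neutrophils alike, and their control values were highest in control pool 1.

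*Cd14*, the co-receptor for lipopolysaccharide, had 103, 312 and 0 counts in the control pools and 804 and 1388 in the exposed pools. *Tlr2*, a receptor for bacterial lipoproteins, had 180, 0 and 0 counts and then 269 and 93, with overlap between the groups. *Nlrp3*, the sensor of an inflammasome, was at 0 in all 5 libraries, which allows up to 0.0607 to 0.0704 CPM.

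The neutrophil genes were low in level but had a different distribution from the macrophage genes. *Cxcr2* had 17, 4 and 0 counts in the control pools and 103 and 355 in the exposed pools. *Csf3r*, the receptor for the growth factor G-CSF, had 127, 204 and 1 counts and then 587 and 434. Neither gene overlapped between groups, and for *Cxcr2* exposed pool 3 was the highest. Both exposed pools lay above all control pools in 20.3% of all genes tested. *Csf3r* reached the count minimum of the test through the exposed pools alone, which favours this pattern. *Cxcr2* did not reach it, so the lack of overlap is a description only.

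The proteins of *S100a8* and *S100a9* form 1 complex, and the genes lie 22596 bases apart on chromosome 3. Among the 4 neutrophil genes, only these had control pool 3 as the highest control. *S100a9* had 94, 45 and 181 counts in the control pools and 398 and 249 in the exposed pools. *S100a8* had 29, 27 and 151 counts and then 308 and 56, so its groups overlapped. The summed level of the 4 neutrophil genes was 6.17, 5.67 and 7.4 CPM in the control pools and 32.1 and 25.7 CPM in the exposed pools, and here control pool 1 did not stand apart from the other controls.

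Cytokine and chemokine genes were led by exposed pool 3 in 4 of 4 cases. *Il1b*, encoding interleukin-1β, had 3456, 11 and 35 counts in the control pools and 1138 and 3640 in the exposed pools. *Ccl3* had 550, 10 and 0 counts and then 194 and 1717, and *Ccl4*, its neighbour at 13228 bases on chromosome 11, had 723, 0 and 3 counts and then 323 and 1852. In these 3 genes control pool 1 lay above exposed pool 1, and the other control pools were near the floor. The antagonist of interleukin-1 behaved otherwise: *Il1rn* had 1, 85 and 56 counts in the control pools and 2011 and 2149 in the exposed pools. Control pool 1, with 3456 counts of *Il1b*, had 1 count of *Il1rn*.

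*Acod1* and *Hcar2* were not detected in any control library. *Acod1* (ENSMUSG00000022126; GRCm38, chromosome 14, 103046977 to 103056573, plus strand) had 0 counts in the 3 control pools, against 978 and 993 in the exposed pools, that is 25.8 and 28.6 TPM (a level per exon length). *Hcar2* (ENSMUSG00000045502; chromosome 5, 123863570 to 123865499, minus strand) had 0 counts in the 3 control pools and 1201 and 426 in the exposed pools, or 43.1 and 16.7 TPM. Against a floor of 3 counts per control library, the mean of the exposed pools was at least 359-fold higher for *Acod1* and at least 294-fold higher for *Hcar2*. By pool, these bounds were 352 and 366 for *Acod1* but 432 and 157 for *Hcar2*, whose bound therefore rests mainly on exposed pool 1. Control pool 1 had neither transcript although its 13 macrophage and microglia genes summed to 425 CPM, against 435 CPM in exposed pool 1. Over the 20 further macrophage genes these were 451.6 and 234.6 CPM. *Apoe* alone gave 13453 of 19531 counts in control pool 1, but 1565 of 10190 in exposed pool 1. *Cbr2* gave 3847 and 4963, so both sums rest largely on these genes. Among the rest, *Adgre1* had 587 and 0 counts and *Slc37a2* had 1 and 1789. The monocyte genes were far lower in control pool 1.

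A jump of this kind was rare in the libraries. At most 3 counts in every control pool together with at least 140 in both exposed pools was found in 8 of 10054 genes, or 0.0796%, *Acod1* and *Hcar2* among them. The others were *Tnfrsf23*, *Gpd1*, *Lnx1*, *Olfr437*, *Olfr1155* and *3930402G23Rik*.

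Genes around both were looked at for comparison. Near *Acod1*, *Mycbp2* was tested and not called, and *Kctd12*, *Lmo7* and *Gm34643* did not reach the count minimum. The nearest neighbour of *Hcar2*, its relative *Hcar1*, is a receptor for lactate and was at 0 in all 5 libraries. *Zcchc8*, *Rsrc2* and *Denr* were tested and not called, and *Kntc1* and *Gm43518* did not reach the count minimum.

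**Figure D2:**
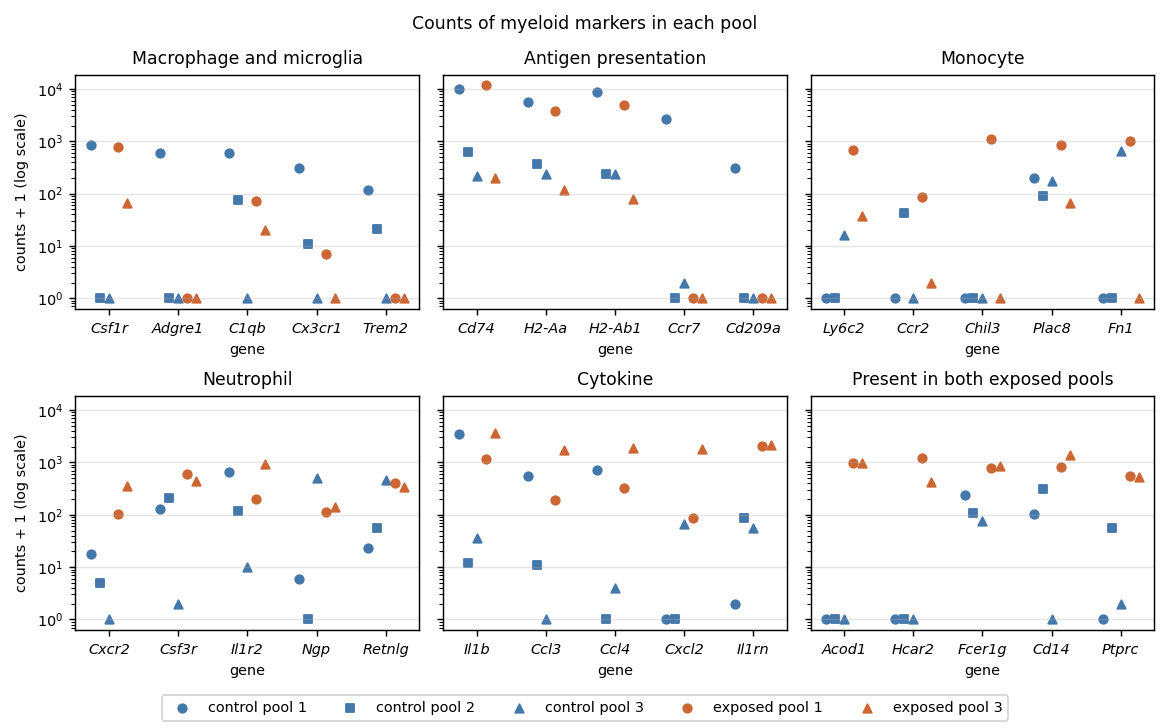
Counts plus 1 on a log scale (vertical axis) for genes of 6 kinds (panels, genes on the horizontal axes), with 1 point per pool; blue points are control and orange points exposed pools, and the shape gives the pool number. *Adgre1*, *Ccr7* and *Cd209a* are seen in control pool 1 with 587, 2668 and 308 counts, *Chil3* in exposed pool 1 with 1109, and *Cxcl2* mostly in exposed pool 3 with 1763.

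Which genes were high in the same pools can be read from the 2 pools with the highest CPM of each gene, which held a median of 85.9% of a gene's summed CPM. The groups that follow were read from these values and carry no test. For 12 genes the 2 highest were control pool 1 and exposed pool 1: *Laptm5*, *Lcp1*, *Csf1r*, *Aif1*, *C1qa*, *C1qb*, *Cd68*, *Mpeg1*, *Ctss*, *Lyz2*, *Cd74* and *Tlr2*. For 3 genes, *Il1b*, *Ccl3* and *Ccl4*, they were control pool 1 and exposed pool 3. For 13 genes they were the 2 exposed pools: *Ptprc*, *Coro1a*, *Spi1*, *Tyrobp*, *Fcer1g*, *Clec7a*, *Cd14*, *S100a9*, *Csf3r*, *Cxcr2*, *Il1rn*, *Acod1* and *Hcar2*. *Cx3cr1*, *Trem2* and *C1qc* had their 2 highest levels in control pools, and *Itgam* and *S100a8* in 1 pool of each group. The 12 genes with control pool 1 and exposed pool 1 highest hold 9 of the 13 macrophage and microglia genes. The 13 with the 2 exposed pools highest hold 3 of the 4 neutrophil genes. Both exposed pools lay above all control pools in 20.3% of all genes tested. Of these 13 genes, 11 passed the filter of the test through the exposed pools alone, which favours this pattern, so these counts are descriptions only.

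Genes outside the 34 gave each pool a different set of myeloid markers. Control pool 1 held *Adgre1*, the F4/80 antigen of tissue macrophages, at 587 counts against 0 in the other 4 libraries. It also held *Ccr7*, the homing receptor of migrating dendritic cells, at 2668 counts against at most 1, and *Cd209a*, a lectin of dendritic cells, at 308 against 0. The MHC class II genes *H2-Ab1*, *H2-Aa* and *H2-Eb1* had 8680, 5529 and 4130 counts there and 5001, 3871 and 1515 in exposed pool 1, but at most 370 in any other pool. The other genes of the dendritic cell list did not follow *Ccr7* and *Cd209a*. *Itgax* had 53, 0 and 61 counts in the control pools and 0 and 201 in the exposed pools. *Flt3*, *Clec9a* and *Xcr1* were at or under 3 counts in every library. Control pool 1 was also the richest in the erythroid list, with 349.8 CPM summed over 5 genes against 6.57 to 107.7 in the others. Whether blood cells account for its myeloid counts was not tested.

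Exposed pool 1 carried the monocyte genes: 6 of the 6 genes of that list were above the floor, and its summed level was 88.2 CPM, against 2.37 in exposed pool 3 and 2.65 to 18.8 in the control pools. *Chil3* had 1109 counts there and 0 in the other 4 libraries, and *Ly6c2*, the LY6C antigen of inflammatory monocytes, had 670 against at most 36. *Fn1*, fibronectin, had 1031 counts there but also 656 in control pool 3. *Plac8* had 867 counts there and 64 to 199 in the others. *Adgre1* was at 0 in exposed pool 1, so the macrophage genes it shared with control pool 1 came without that marker.

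In exposed pool 3 the 13 macrophage and microglia genes summed to 33.3 CPM, with 10 of them above the floor, and several inflammatory genes had their highest level. *Cxcl2*, the chemokine that attracts neutrophils, had 1763 counts there and at most 85 elsewhere. *Il1r2*, the decoy receptor of interleukin-1 found on neutrophils, had 936 there, but 656 in control pool 1. *Mmp9*, a secreted gelatinase of neutrophils, had 610 there, but 453 and 495 in control pools 2 and 3. *Tnf* had 368 counts there and at most 1 in any other library. The further neutrophil list summed to 60.2 CPM in exposed pool 3, 44.4 CPM in control pool 3, 29.6 CPM in exposed pool 1, and 18.6 and 14.3 CPM in control pools 1 and 2, so unlike the 4 neutrophil genes above this list overlapped between the groups.

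Control pool 3 had the fewest myeloid genes but held some granule genes of neutrophils. *Ngp* had 494 counts there against 5 and 0 in the other control pools and 114 and 140 in the exposed pools. *Retnlg* had 468 against 22 and 56 and then 411 and 336. *Camp* and *Mmp8* were also highest there, at 96 counts each. Other genes of that list did not set this pool apart. *Lcn2* had 175 counts there but 355 and 235 in the exposed pools, and *Ltf* had 83 but 171 in exposed pool 3. *Mpo* and *Elane* were at 0 in all libraries. *Csf3r* and *Cxcr2*, which mature neutrophils carry on the surface, were at 1 and 0 counts in control pool 3. Control pool 2 was the highest of the 5 pools in none of the myeloid lists. The 7 T and NK cell genes summed to at most 1.69 CPM in any pool. The 6 B and plasma cell genes summed to 11.8 CPM in control pool 3, where the antibody gene *Igkc* had 494 counts, and to 0.243 to 3.13 CPM in the others. The 6 mast cell and basophil genes were at 0 in all libraries.

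**Figure D3:**
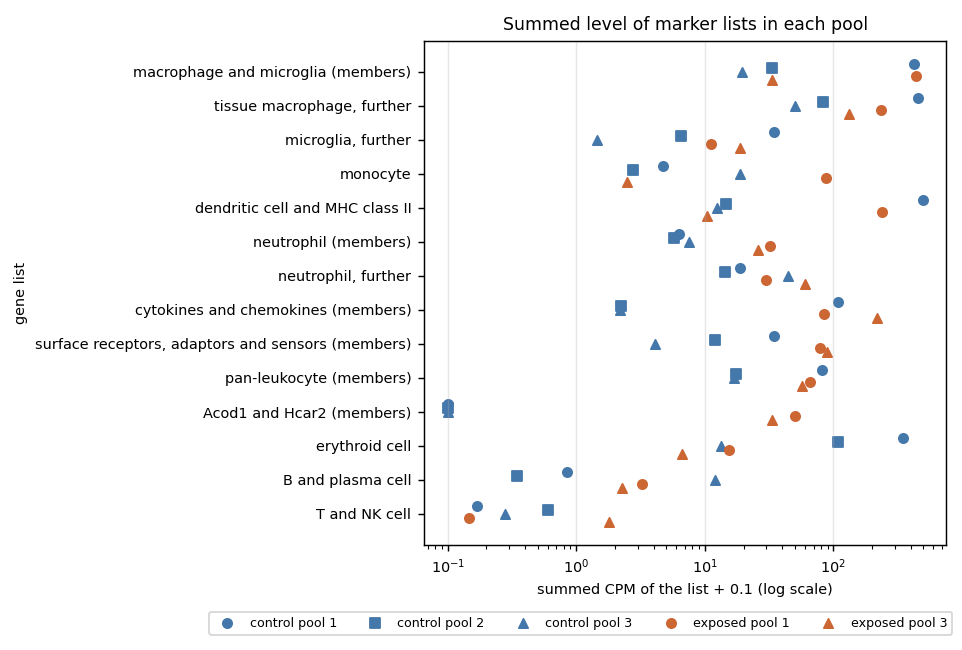
Summed CPM plus 0.1 on a log scale (horizontal axis) of 14 gene lists (vertical axis), with 1 point per pool; blue points are control and orange points exposed pools, and the shape gives the pool number. Control pool 1 and exposed pool 1 lie together at 425 and 435 CPM for the macrophage and microglia genes, and both exposed pools lie above the 3 control pools for the 4 neutrophil members, the receptors and adaptors, and *Acod1* and *Hcar2*, but not for the further neutrophil list.

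The comparison of exposed with control pools was then made in a fit across 10054 genes with edgeR, in which a gene needed 140 counts or more in each library of 1 group or both, and was called at an adjusted p under 0.1 and a log2 fold change beyond 0.5 in either direction. Of the 34 myeloid genes 19 were tested. Of these 19, 16 reached the minimum through the exposed pools alone, which ties their direction to the filter, so counts and medians over the 19 are given as descriptions only. Called higher were 4 of the 19 (21.1%), *Acod1*, *Hcar2*, *Il1rn* and *Fcer1g*, where 344 genes or 3.42% of all genes tested were called higher. None was called lower, also at an unadjusted p under 0.05 and with DESeq2, where 186 genes or 1.85% of all genes were called lower by edgeR.

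The fitted changes of the 4 called genes differed widely in size. *Acod1* rose with a log2 fold change of 13.03 ± 0.81 (SE, edgeR adjusted p = 0.00525) and *Hcar2* with 12.74 ± 1.12 (adjusted p = 0.0113), estimates that depend on the prior count since the control pools were at 0. *Il1rn* rose by 5.63 ± 1.17 on the log2 scale (edgeR adjusted p = 0.0718), and *Fcer1g* by 2.63 ± 0.61 (adjusted p = 0.0807). In CPM normalised by TMM, the control pools had 0.995 ± 0.88 (SD, n = 3) of *Il1rn* and the exposed pools 49.6 ± 3.22 (SD, n = 2), and for *Fcer1g* these were 3.13 ± 2.15 (SD, n = 3) and 19.4 ± 1.62 (SD, n = 2). The call of *Hcar2* was lost without exposed pool 1 (edgeR adjusted p = 0.19). Those of *Il1rn* and *Fcer1g* were lost without control pool 2 (0.159 and 0.212), without exposed pool 1 (0.308 and 0.333) and without exposed pool 3 (0.202 and 0.242). *Acod1* remained called when any 1 library was left out, with adjusted p from 0.00677 to 0.0709, but with the pool number as a block no myeloid gene was called, *Acod1* at an adjusted p of 0.159 and *Hcar2* of 0.166.

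The other 15 tested genes were not called. All 19 estimates were positive, as the filter favours. Among the 33 genes fitted with a lower filter, at least 10 counts in at least 2 libraries, 28 were positive and 5 negative, and none of the 5 was called: *Trem2* (−8.50 on the log2 scale), *Cx3cr1* (−5.04), *C1qc* (−2.64), *C1qb* (−2.25) and *Aif1* (−0.83). The median log2 fold change was 2.22 over the 19 and 1.12 over the 33. That of all genes tested was −0.03 with the first filter and −0.02 with the lower. The median SE was 1.17 for the myeloid genes and 0.332 for all genes. Genes were not matched for level, so this difference does not by itself measure the spread between pools. *Ptprc* had a log2 fold change of 5.05 ± 1.71 (SE, edgeR adjusted p = 0.191), *Cd14* of 3.16 ± 1.54 (adjusted p = 0.331), *Tyrobp* of 1.98 ± 0.89 (adjusted p = 0.296) and *S100a9* of 1.71 ± 0.70 (adjusted p = 0.252). The macrophage genes *Cd74*, at 0.78 ± 1.86 (SE, edgeR adjusted p = 0.86), and *Lyz2*, at 0.26 ± 1.01 (adjusted p = 0.923), had errors larger than their estimates.

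Over the 34 genes, both exposed pools lay above all control pools in 13 and below all in 0. Of the 13, 11 were tested, and *Spi1* and *Cxcr2* were too low to be tested. Each of the 11 passed the filter through the exposed pools alone, which favours this pattern. The 20.3% of all genes tested that showed it is therefore given as a description only. Without control pool 1, 8 of 19 genes (42.1%) were called higher, *Il1b*, *Ccl4*, *Clec7a* and *Tyrobp* in addition to the 4, where 320 of 10225 genes or 3.13% were. That library alone therefore changed the count from 4 to 8.

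**Figure D4:**
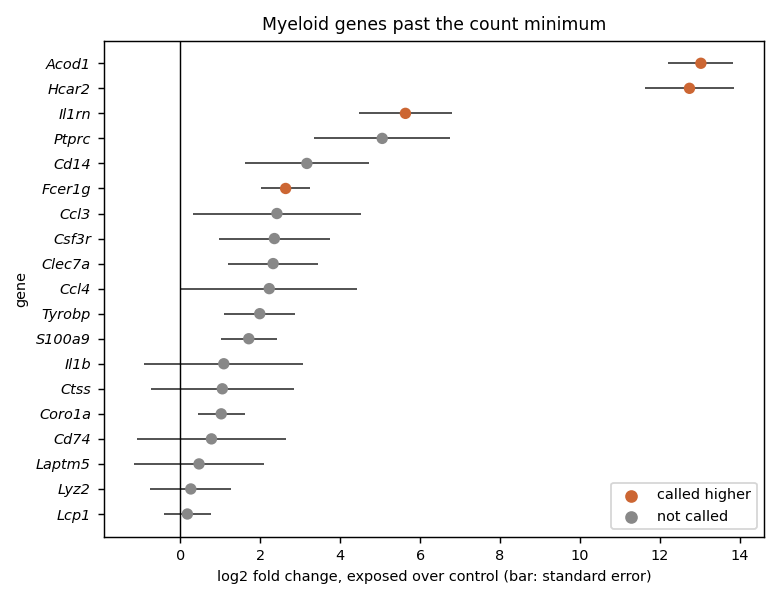
Log2 fold change of exposed over control pools (horizontal axis) with its standard error (bars) for the 19 myeloid genes past the count minimum (vertical axis), from the edgeR fit; orange points were called higher and grey points were not called. All 19 estimates are above 0, from 0.17 for *Lcp1* to 13.03 for *Acod1*.

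A list of 28 genes known to be induced together with *Acod1* in activated macrophages was compared. Of its 8 tested genes 3 were called higher and 0 lower, against 3.42% and 1.85% of all genes tested, and the median log2 fold change of the 8 was 1.29. *Socs3* and *Ptgs2* reached the count minimum through the exposed pools alone, which ties their direction to the filter. The untested genes did not all rise, and 3 were at or under 3 counts in every library. *Cebpd* had 128, 13 and 25 counts in the control pools and 0 and 0 in the exposed pools, whereas *Cxcl10* had 0, 0 and 0 and then 125 and 76. *Socs3*, the feedback inhibitor of cytokine signalling, had 313, 192 and 84 counts in the control pools and 2280 and 1939 in the exposed pools (log2 fold change 3.53 ± 0.56 SE, edgeR adjusted p = 0.0279). *Nfkbia*, the inhibitor of NF-κB, had 3081 to 3921 counts and then 11043 and 9707 (1.70 ± 0.20, edgeR adjusted p = 0.00922). *Marcksl1* had 704 to 1218 counts and then 3297 and 2083 (edgeR adjusted p = 0.0557). *Socs3*, *Nfkbia* and *Marcksl1* are not particular to myeloid cells, and all 3 were present in every control pool, unlike *Acod1*.

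Of the 5 tested genes that were not called, *Sod2*, the mitochondrial superoxide dismutase, was nearly even, with 5621 to 7385 counts in the control pools and 7605 and 7172 in the exposed pools. *Ptgs2*, the inducible cyclooxygenase, had 0, 42 and 0 counts in the control pools and 203 and 1708 in the exposed pools, and was not called (edgeR adjusted p = 0.165). *Cebpb*, a transcription factor of myeloid cells, did not reach the count minimum and was not tested. It had 3747, 544 and 42 counts and then 54 and 62, with its highest level in control pool 1. The gene *Slc37a2*, a sugar phosphate transporter of macrophages on the list of further macrophage genes, had 1, 4 and 0 counts in the control pools and 1789 and 2536 in the exposed pools (log2 fold change 10.38 ± 0.77 SE, edgeR adjusted p = 0.00241). It was called higher, as were 3.42% of all genes tested, and the other 3 tested genes of that list were not called. *Apoe*, a lipid carrier of macrophages, had 13453, 1171 and 510 counts in the control pools and 1565 and 339 in the exposed pools.

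Of the enzymes around the substrate and product of ACOD1, 13 of 13 were tested, with a median log2 fold change of −0.0032. Called higher was 1, *Idh3a*, a subunit of isocitrate dehydrogenase, by 0.72 ± 0.15 (SE, edgeR adjusted p = 0.0562), and none was called lower. Of all genes tested, 3.42% were called higher and 1.85% lower. Among 13 relatives of *Hcar2* and genes of ketone body metabolism 5 were tested and none was called in either direction.

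In the other pathway lists few genes reached the count minimum. Of 11 inflammasome genes 1, *Nek7*, was tested and not called, and of 15 genes of complement and Toll-like receptors likewise 1. Of 9 interferon response genes 4 were tested, and 1 was called lower, as were 1.85% of all genes tested. This was *Ifit1*, which fell by 1.02 ± 0.17 on the log2 scale (edgeR adjusted p = 0.0303). Of 11 ligands and partners of myeloid receptors 4 were tested and none was called. Among them *Cx3cl1*, the neuronal ligand of CX3CR1, had 2153 to 2889 counts in the control pools and 728 and 1134 in the exposed pools (log2 fold change −1.24 ± 0.32 SE, edgeR adjusted p = 0.109).

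The promoters of the called genes are shown because these genes rose in the same exposed pools. RefSeq promoters (GRCm38.p6) were at hand for 26 of the 34 genes, *Hcar2* not among them. Each sequence runs 5′ to 3′ on the gene's own strand and ends at the base before the gene model of the count tables. Capitals mark an AP-1 motif (TGANTCA, searched on both strands), which occurred in the *Il1rn* promoter from base −141 to −135 before the RefSeq start and not in the other two.
Acod1, chr14:103046762-103046976, plus strand: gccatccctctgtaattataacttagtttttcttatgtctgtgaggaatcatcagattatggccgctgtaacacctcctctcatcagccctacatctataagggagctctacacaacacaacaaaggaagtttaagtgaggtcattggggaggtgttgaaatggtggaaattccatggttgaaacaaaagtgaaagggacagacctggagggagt
Il1rn, chr2:24336610-24336852, plus strand: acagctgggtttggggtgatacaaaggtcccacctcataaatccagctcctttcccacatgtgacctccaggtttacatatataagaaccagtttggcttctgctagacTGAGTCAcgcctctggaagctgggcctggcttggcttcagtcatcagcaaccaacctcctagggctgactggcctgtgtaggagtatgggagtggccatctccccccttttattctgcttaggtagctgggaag
Fcer1g, chr1:171234366-171234599, minus strand: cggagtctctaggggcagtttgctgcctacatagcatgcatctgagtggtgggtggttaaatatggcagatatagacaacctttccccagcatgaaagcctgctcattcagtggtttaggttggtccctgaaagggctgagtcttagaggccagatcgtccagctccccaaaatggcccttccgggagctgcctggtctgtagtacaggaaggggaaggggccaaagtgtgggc

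In the 250 bases before the RefSeq start of each gene, the AP-1 motif occurred in 3 of the 26 myeloid genes and in 7.82% of 27025 genes with a promoter in the table. PU.1 (GAGGAAG) occurred in 7 of the 26 and in 12.0% of all genes, EBF (CCCNNGGG) in 6 and in 13.4%, and the κB motif in 4 and in 8.23%. The short CRE core (TGACG) was found in 4 and in 19.8% of all genes, and the full CRE (TGACGTCA, which contains that core) in 0 and in 1.77%. None of these motifs was found in the windows of *Acod1* and *Fcer1g*. These matches describe letters in a window and are not sites of binding.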

How the data were processed

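RNA of GFP-positive neurons sorted into pools, 3 control and 2 exposed, was sequenced by FACS-seq. The authors mapped the reads with STAR 2.7.0a on GRCm38 with the reporter added and deposited raw counts per gene from featureCounts 1.6.3 on exons (Ensembl release 99 with updated odorant receptor models), ignoring strand and dropping multi-mapping reads, which lowers genes with near-identical copies. Samples were grouped by their labels. Of 55411 genes, 55144 were named through GENCODE M21; the 92 ERCC spike-ins and the reporter stayed out of the gene totals. CPM and TPM were computed from the deposited counts and exon lengths.

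Counts were tested in R 4.3.3 with edgeR 4.0.16 (TMM, robust glmQLFit, glmQLFTest) on all 5 libraries, condition being the only factor, on genes that reached 140 counts (the dip between the 2 modes of the log2 count density) in each library of 1 group or both. Genes were called at a Benjamini-Hochberg adjusted p-value under 0.1 over all genes tested with a log2 fold change beyond 0.5 in either direction. The SE is the log2 fold change divided by the square root of F. Pools come from separate mice. The procedure was tested on simulated data. The 34 genes and all lists were chosen with earlier results of these data known. All 34 are accounted for. From every other list at most 4 called genes and the 3 of highest CPM were eligible to be named. *Adgre1*, *Ccr7*, *Cd209a*, *Itgax*, *Flt3*, *Clec9a*, *Xcr1*, *Ly6c2*, *Retnlg*, *Ptgs2*, *Tnf*, *Cxcl2*, *Cxcl10* and *Cebpd* were named after their values were seen. So were *Camp*, *Mmp8*, *Lcn2*, *Ltf*, *Mpo* and *Elane*. Alternatives were DESeq2 1.42.0, other scalings, filters and thresholds, the pool number as a block, and single libraries left out. Promoters came from RefSeq. Some genes that the naming rule selects are not reported here.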

Additional observations from a re-analysis of the deposited data

How the results depend on the processing

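Genes called higher and lower over all genes numbered 344 and 186. They were 190 and 90 at an adjusted p under 0.05, 725 and 769 with DESeq2, 94 and 49 with ERCC spike-in scaling, 162 and 74 with at least 10 counts in at least 2 libraries, and 93 to 348 and 19 to 429 when 1 library was left out. The ERCC scaling moved the overall median of log2 fold changes from −0.03 to −0.23. Myeloid genes called higher numbered 4, and 2 at an adjusted p under 0.05, with at least 10 counts in at least 2 libraries or with the count minimum in at least 1 library, and 1 to 8 when 1 library was left out (8 without control pool 1, 1 without exposed pool 1, 2 without exposed pool 3). *Ptprc* was called with DESeq2 (adjusted p = 0.0281), with ERCC scaling (0.00522) and without control pool 2 (0.0284), and *Fcer1g* was not with ERCC scaling (0.116). Myeloid genes called lower remained 0 in all settings run. The ratio of exposed to control mean share of the 34 genes, 2.33, ranged from 1.66 to 10.1 when 1 library was left out. Genes with their highest level in control pools 1 and 2 and exposed pools 1 and 3 numbered 12, 0, 11 and 10 by CPM and 9, 1, 8 and 15 by ERCC scaling, under which the leading pool changed for 9 genes.

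With the replicate block, in which the pool number is a factor, 11 genes were called higher, 0 lower, and 0 myeloid genes. Deviations of same-numbered pools from their group means correlated at 0.0549 for pool 1 and −0.0823 for pool 3. With 2 exposed pools the deviations of that group mirror each other, so these values are not independent. Whether same-numbered pools share a day was not tested, nor was the cause of the lower counts. Log2 fold changes turned negative for *Lyz2* with the block (−0.16) and ranged over libraries left out from −1.50 to 1.61 (*Lyz2*), −0.13 to 1.02 (*Lcp1*), −0.093 to 3.24 (*Laptm5*), −0.039 to 6.87 (*Il1b*), −4.13 to 4.01 (*Cd74*) and −1.19 to 4.25 (*Ctss*), each highest without control pool 1. The lowest came without exposed pool 1 for *Lyz2*, *Cd74* and *Ctss*, without exposed pool 3 for *Il1b*, without control pool 2 for *Lcp1* and without control pool 3 for *Laptm5*. *Lyz2* was also negative without control pools 2 (−0.12) and 3 (−0.09), and *Lcp1* without control pool 3 (−0.06). Of these 6 genes, *Il1b* was called without control pool 1 and the others in no setting. With 2 exposed pools, the spread within that group rests on 1 difference per gene, and genes under 140 counts were not tested.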
